A study of Mus musculus with 3 samples.

Results

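Carbonic anhydrases catalyse the reversible hydration of carbon dioxide to bicarbonate and a proton, and most of them carry a zinc ion in the active site. In the stomach the cytosolic enzyme of parietal cells supplies protons for acid secretion, and surface cells use the same reaction to secrete the bicarbonate that protects the mucosa. Other members act in mitochondria or face the outside of the cell, and a few related proteins have lost the zinc-binding histidines and with them the catalysis. The genes described here are 10 carbonic anhydrase genes chosen by name, Car2, Car3, Car4, Car5b, Car8, Car9, Car11, Car12, Car13 and Car14, with every gene spot that carries one of these names, 12 probes among 39429 on the array.

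The tumours, numbered 1, 2 and 3 below (n = 3), were primary diffuse-type gastric cancers and came from 12-month-old mice of genotype Atp4b-Cre+;Cdh1loxP/loxP;Trp53loxP/loxP. Cre is driven there by the promoter of Atp4b, a proton pump gene of parietal cells, and acts on floxed Cdh1 (E-cadherin) and Trp53 (p53). The control was 1 pool of 5 normal gastric mucosae from Atp4b-Cre-;Cdh1loxP/loxP;Trp53loxP/loxP mice of the same age, which thus carried the same floxed alleles without the recombinase. The mucosae of the pool had been stripped of stroma mechanically in 30 mM EDTA-2Na, a step the labels do not give for the tumours. Each tumour was labelled with Cy5 (red) and hybridised beside the pool in Cy3 (green) on its own 2-colour Agilent array, so every value below is a log2 ratio of tumour over pool unless it is called a signal.

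On the 3 arrays 64.0% to 66.8% of 43020 gene spots were well above background in red and 52.5% to 54.2% in green, and none was saturated. Of 19428 genes tested, 1814 were called higher and 1882 lower in the tumours, where a call needs an adjusted p under 0.05 and a difference of at least 2-fold by limma. The share of called genes that were higher was 49.1% with loess normalisation, 93.3% when the median gene spot was set to 0 (median centring) and 65.1% when the median tested probe was. Median centring put the median ratio of all genes at 0.77, against 0.05 with loess, -0.07 with spike-in centring and -0.10 in the authors' value table. Cdh1 had -4.24 ± 0.85, Trp53 -0.21 ± 0.15 and Atp4b -6.83 ± 0.14 (SD, n = 3). Trp53 was not called (adjusted p = 0.161) and was read by a dim probe, with normalised log2 signals of 6.41 in the tumours and 6.62 in the pool. Markers of the differentiated gland were low in the tumours: the summed normalised signals of 9 parietal cell genes were 8288 to 11972.5 in tumours and 429302 to 488519 in the pool, and 8 of the 9 were called lower. All 5 tested chief cell genes and all 7 mucous cell genes were also called lower, while 6 of 7 fibroblast and 6 of 7 macrophage genes were called higher.

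All 10 carbonic anhydrase genes could be tested, through 11 of their 12 probes that were well above background in at least 1 channel on all 3 arrays. Car2, Car5b, Car9 and Car13 were called lower and Car12 was called higher, so 5 of 10 were called, against 19.0% of all genes tested. By direction these were 4 of 10 lower against a background of 9.69%, and 1 of 10 higher against 9.34%. Car3 and Car12 met that filter through the tumour channel only and Car8 through the pool only; over the 7 genes above background in both channels on every array, 4 were called lower and 0 higher, against 21.0% of 15579 genes under that filter. With median centring 4 of the 10 were called, against 42.7% of all genes, so the share over both directions together was near the background. By direction 2 of 10 were higher and 2 of 10 lower, where 7748 of 19428 genes were called higher and 556 lower. At any size of difference 6 of 10 passed the adjusted p, against 47.4% of all genes. The median of the 10 ratios was -0.37, against 0.05 for all genes, with a range of -2.68 for Car9 to 1.17 for Car12. The plot of signals shows the data before normalisation, where red spots are brighter than green ones in general, so that equal red and green signals do not mean equal RNA.

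**Figure D1:**
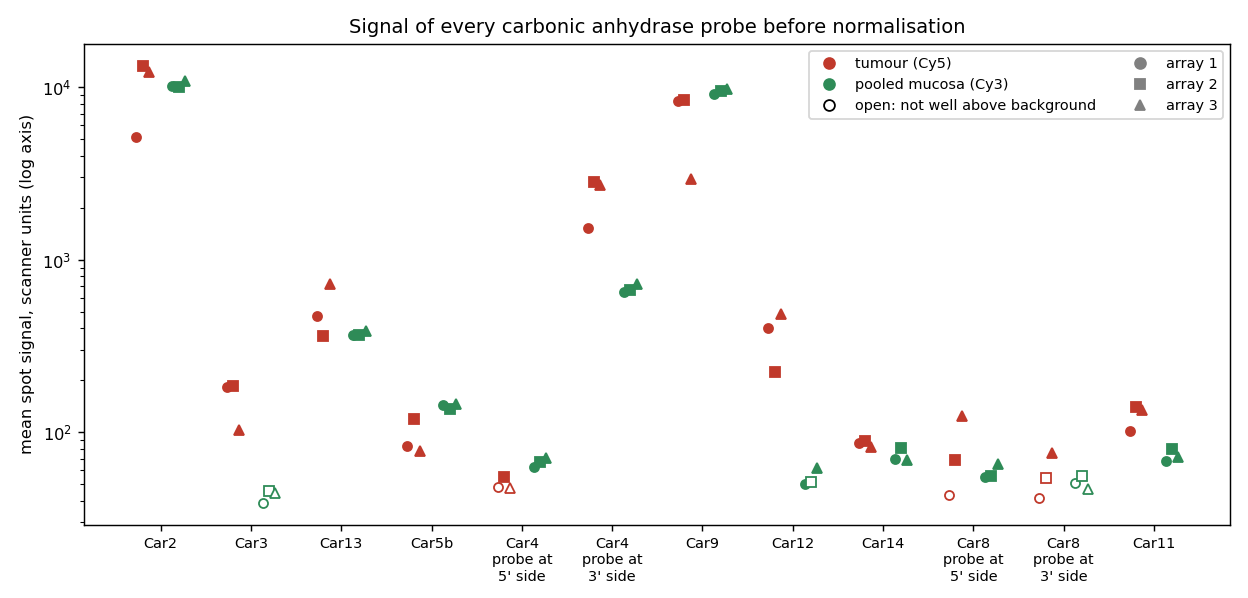
Mean spot signal (scanner units, log axis) of each of the 12 probes on the 3 arrays, tumours (Cy5) left and the pooled mucosa (Cy3) right of each pair, with open symbols where a spot was not well above background. Pool signals of a probe lie close together on the 3 arrays, while tumour signals of Car2 run from 5132 to 13300.4 and those of Car9 from 2947 to 8474.

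Among the cytosolic enzymes, Car2, the fast isoform of parietal and surface cells, fell in the tumours. Its spot signals were 5132, 13300.4 and 12221 in tumours 1, 2 and 3, against 10144, 9959.9 and 10793.5 in the pool on the same arrays. After normalisation the ratios were -2.70, -1.90 and -2.03, all below 0, with the lowest in tumour 1. The mean of -2.21 ± 0.43 (SD, n = 3) is a 4.62-fold lower level (limma adjusted p = 0.00215). Fewer cells of a type, less RNA per cell and the stripping of stroma from the pool cannot be told apart. This limit holds for Car2 and for the genes that follow. With median centring Car2 had -0.66 and was not called (adjusted p = 0.0717), which lies 1.43 below the median of all genes under that setting (a relative value of -1.43). Red blood cells also contain the Car2 enzyme. Of 9 erythroid genes 4 were tested. The brightest, Hba-a1, had 0.79 ± 2.15 (SD, n = 3; adjusted p = 0.470), with ratios of 3.16, -1.03 and 0.24 in tumours 1, 2 and 3. With spike-in centring 3 of the 4 were called higher, as were 2849 of 19428 genes. Calls under that setting say little about the spread among the tumours. The summed signals of the 4 erythroid genes were 96088, 5686 and 13763 in tumours 1, 2 and 3 and 9342 to 10328 in the pool. Tumour 1 had the highest erythroid sum and the lowest Car2 ratio, and the part of blood in the Car2 signal was not tested.

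Car13, another cytosolic isoform, was lower in the tumours by a smaller margin. Its ratios were -0.92, -1.75 and -0.76, with tumour 2 the lowest, and averaged -1.14 ± 0.53 (SD, n = 3; adjusted p = 0.0167). The call rests on tumour 2: without it the ratio was -0.84 (adjusted p = 0.0249), under the 2-fold threshold. It was also lost with spike-in centring (-0.95), with centring on the tested probes (-0.80) and with median centring (-0.11, adjusted p = 0.676).

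Car3, a slow cytosolic isoform abundant in muscle and fat, was not well above background in the pool on any array. Its spot signals were 183, 185 and 102 in tumours 1, 2 and 3, against 38.9, 45.4 and 44.5 in the pool. The ratios of 1.00, 0.66 and 0.12 averaged 0.59 ± 0.45 (SD, n = 3), which missed the threshold (adjusted p = 0.0632), with a 95% interval of 0.08 to 1.11 before adjustment. With the pool at its own dim signal this is at least 1.51-fold higher in the tumours, a bound that equals the fitted ratio and covers neither the spread among arrays nor the scaling. With background corrected at an offset of 0 it was called higher at 1.47 (adjusted p = 0.0338), and with Agilent's processed signals at 1.75 (adjusted p = 0.0277), while it had 0.04 with spike-in centring (adjusted p = 0.935), 0.18 with centring on the tested probes (adjusted p = 0.556) and 0.39 without tumour 1, none of them called. Of 7 tested adipocyte genes 1 was called higher and 1 lower, with summed signals of 3081 to 6278 in tumours and 5130.0 to 6609 in the pool. Of 8 skeletal muscle genes 3 were tested and 1 was called higher, Acta1 at 1.90 ± 1.29, with sums of 309 to 2103 in tumours and 236 to 346 in the pool, and their part in the Car3 signal was not tested.

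Car13, Car3 and Car2 are neighbours on chromosome 3, where the starts of the first and last probe lie 237874 bases apart in mm9. Their probes lie at chr3:14662332-14662391 (Car13), chr3:14871781-14871840 (Car3) and chr3:14900206-14900265 (Car2). Car1, the erythrocyte isoform whose gene lies in the same cluster, was not well above background in the pool with either of its probes and had -0.033 ± 0.11 at the tested one. The cluster thus held 2 genes called lower and 2 not called.

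Car5b, the mitochondrial isoform, which supplies bicarbonate to carboxylating enzymes, fell in all 3 tumours. Its signals were 82.9, 119.6 and 77.7 in tumours 1, 2 and 3, against 144, 136 and 145 in the pool. The ratios of -1.54, -1.35 and -1.78 had a mean of -1.55 ± 0.21 (SD, n = 3), 2.93-fold lower (adjusted p = 0.00168; chrX:160416946-160417005 of mm9, minus strand). It was called lower under all 12 alternatives tried, with values of -3.13 for Agilent's processed signals to -1.02 for median centring.

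**Figure D2:**
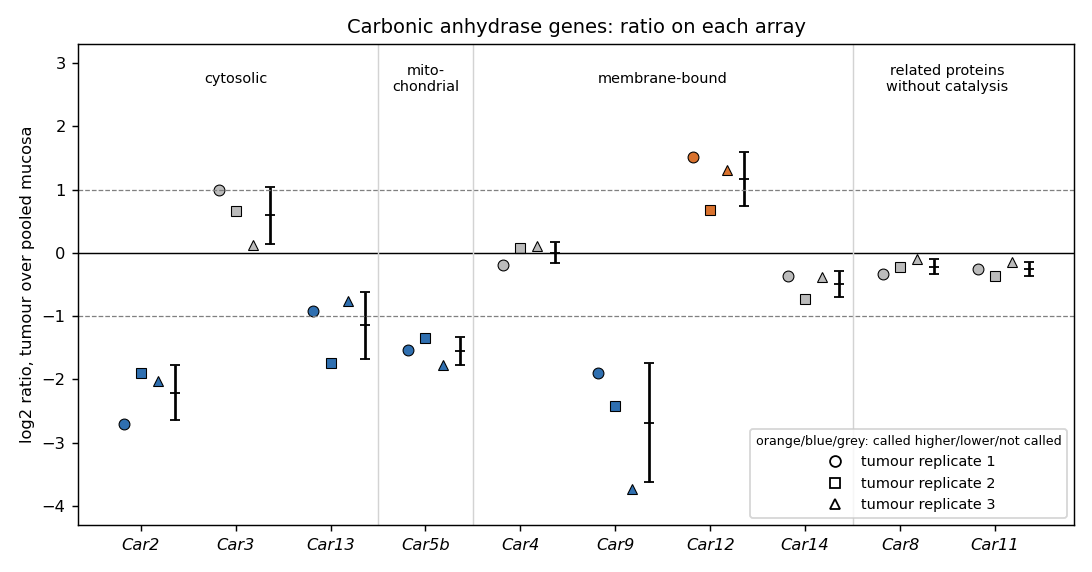
Log2 ratio of tumour over pool for each gene on arrays 1, 2 and 3 (symbols) with mean and SD at right (n = 3), grouped by the place of the protein; dashed lines mark 2-fold. Car9, Car2, Car5b and Car13 lie below 0 in all 3 tumours and Car12 above 0, while Car4 straddles 0.

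Car9 had the lowest ratio of the family. It encodes a membrane enzyme with an external active site that is known for its induction by hypoxia in many tumours and, unlike most hypoxia-inducible genes, for high expression in normal gastric mucosa; mice without it develop hyperplasia of the gastric epithelium. Signals were 8359, 8474 and 2947 in tumours 1, 2 and 3, against 9178, 9447 and 9756 in the pool. The ratios were -1.90, -2.42 and -3.73, all below 0, and tumour 3 stood lowest. The mean was -2.68 ± 0.94 (SD, n = 3), 6.42-fold lower (adjusted p = 0.00706), and Car9 was called lower under all 12 alternatives, at -1.21 with median centring (adjusted p = 0.0353). Its SD was the largest of the 10 genes, against a median SD of 0.32 for the 10 and 0.19 for all genes.

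Since the low Car9 value stands on 1 probe, the probe is shown, in lower case with the 30 bases in capitals that have the most near matches elsewhere. It lies at chr4:43526518-43526577 of mm9, plus strand.
Car9 probe: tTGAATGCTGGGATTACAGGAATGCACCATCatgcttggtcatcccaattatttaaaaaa
Among 27025 mouse genes with a RefSeq promoter window of 300 bases (build GRCm38.p6), 11 other genes held a stretch matching at least 24 of 30 consecutive bases of this probe on either strand. The other 11 carbonic anhydrase probes had 0 to 3 such genes. These windows cover a small share of the genome and at most the first 50 bases of a transcript, so matches outside them were not counted. The part of such sequences in the Car9 signal was not tested.

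The Car9 promoter is shown because the gene is a textbook target of the hypoxia-inducible factors, which bind sites with the core ACGTG. The window runs from 250 bases before to 50 bases after the start of transcription, chr4:43506776-43507075 of GRCm38.p6, plus strand, with the core in capitals as it reads on this strand.
Car9 promoter: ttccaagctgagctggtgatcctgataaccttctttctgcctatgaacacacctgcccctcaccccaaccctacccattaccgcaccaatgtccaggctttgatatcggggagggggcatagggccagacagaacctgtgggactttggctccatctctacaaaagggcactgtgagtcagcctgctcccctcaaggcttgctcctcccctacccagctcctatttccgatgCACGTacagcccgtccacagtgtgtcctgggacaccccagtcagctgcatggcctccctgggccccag
The core was found 1 time, on the minus strand, beginning at position -18 relative to the start. Among the carbonic anhydrase genes 6 have a window (Car4, Car5b, Car9, Car11, Car12 and Car14), with 7 windows together. Of these 6 genes 3 held ACGTG on either strand, namely Car4, Car9 and Car14. Counted by window and not by gene, 19.6% of all 32851 windows held it. A match of these letters is a description and not evidence of binding.

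Of 37 hypoxia-inducible genes listed beside Car9, 36 were tested, 9 were called higher and 5 lower, or 38.9% against 19.0% of all genes. Over all genes 9.34% were called higher and 9.69% lower. The median ratio of the list was 0.09. The list's counts moved with the scaling, to 22 higher and 0 lower with median centring (where 7748 of 19428 genes were called higher and 556 lower). They were 14 and 1 with centring on the tested probes (3385 and 1818 over all genes). With spike-in centring they were 11 and 2 (2849 and 2622 over all genes). Agilent's processed signals gave a median of -0.03. Leaving out tumour 1 turned the list's counts to 6 higher and 9 lower, with a median of -0.09 (1686 and 1921 over all genes). Leaving out tumour 2 gave 7 and 3, and leaving out tumour 3 gave 8 and 2. Slc16a3, a lactate and proton exporter, had 2.69 ± 1.21 (SD, n = 3; adjusted p = 0.0130), and 2.03 without tumour 1. Lox, a collagen crosslinking enzyme had 2.22 ± 0.58 (SD, n = 3; adjusted p = 0.00372), and 2.00 without tumour 1; it was not well above background in the pool, and its fold of at least 4.67 is again the fitted one. The summed signals of the list, in which the brightest genes weigh most, were 284658, 255317 and 175264 in tumours 1, 2 and 3 and 282872 to 333162 in the pool. Tumour 3 was lowest in this sum and in Car9. With 3 arrays no relation between these values was tested.

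Car12, a membrane enzyme with an external active site that is often abundant in human carcinomas, was the only one of the 10 genes called higher, at a probe that met the filter through the tumours only. Its signals were 402, 224 and 486 in tumours 1, 2 and 3, against 49.98, 51.4 and 62.2 in the pool, where it was well above background on 2 of 3 arrays. The ratios of 1.51, 0.68 and 1.31 were all above 0, with tumour 2 the lowest, and averaged 1.17 ± 0.43 (SD, n = 3), 2.24-fold higher (adjusted p = 0.01005; chr9:66614542-66614601 of mm9). The size depended on the handling of the dim pool signal, at 2.00 with an offset of 0 and 2.83 with Agilent's processed signals. The call was lost without tumour 1 (0.995, just under 2-fold), without tumour 3 (1.10, adjusted p = 0.0623) and with spike-in centring (0.96).

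Car14, a further membrane enzyme with an external active site, passed the adjusted p but not the 2-fold threshold. Its ratios of -0.36, -0.72 and -0.39 averaged -0.49 ± 0.20 (SD, n = 3; adjusted p = 0.0281), from signals of 86.4, 88.4 and 81.5 in tumours 1, 2 and 3 and 69.5, 80.5 and 68.9 in the pool. All 3 tumours were below 0. It was called lower at -1.02 with an offset of 0, at -1.12 with spike-in centring and at -1.36 with Agilent's processed signals and with the authors' value table.

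Car4, an enzyme held on the outer membrane by a lipid anchor, was read by a pair of probes that differed. The downstream and brighter probe, at chr11:84779487-84779546 of mm9, gave ratios of -0.19, 0.08 and 0.11 on either side of 0, from signals of 1533, 2839 and 2719 in tumours 1, 2 and 3 and 652, 663 and 724 in the pool. It averaged 0.00085 ± 0.16 (SD, n = 3; adjusted p = 0.995), with a 95% interval of -0.28 to 0.28, so that a 2-fold difference in either direction lies outside the interval. The upstream probe, 1820 bases away at chr11:84777667-84777726, was dim, with signals of 48.4, 55.2 and 47.6 in tumours 1, 2 and 3 and 62.5, 67.4 and 71.2 in the pool. In the tumours it was well above background on 1 of 3 arrays. Its ratios of -0.55, -0.58 and -0.79 averaged -0.64 ± 0.13 (SD, n = 3). The probe met the filter through the pool only. It passed the adjusted p (0.00867 in the probe-level limma test) but not the 2-fold threshold, so it was not called. Of 24156 probes 17.6% were called, 8.44% higher and 9.12% lower.
Car4 downstream probe: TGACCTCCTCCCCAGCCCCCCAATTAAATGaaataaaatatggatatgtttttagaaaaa
Car4 upstream probe: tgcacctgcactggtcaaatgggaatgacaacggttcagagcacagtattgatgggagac
The pair is printed because the reading of Car4 depends on which probe is used; capitals mark the 30 bases with the most near matches in promoter windows of other genes, and the upstream probe had none. The upstream ratio was lower than the downstream one on all 3 arrays, with differences of -0.37, -0.66 and -0.89 (upstream minus downstream), and the size depends on how the dim signal is corrected. An exact two-sided sign-flip test of these differences gave p = 0.25, the lowest value that 3 arrays can give, so it cannot decide the question. The files list different Ensembl transcripts for the probes, and a difference between transcripts of the gene was not tested. The downstream probe was called higher at 1.18 with median centring (adjusted p = 0.00289), and the upstream one was called lower at -1.77 with an offset of 0, at -1.64 with spike-in centring, at -1.502 with centring on the tested probes and at -2.91 with Agilent's processed signals.

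The related proteins without catalysis showed small ratios at dim probes. Car8, which binds the inositol trisphosphate receptor, had ratios of -0.33, -0.23 and -0.093 in tumours 1, 2 and 3, with a mean of -0.22 ± 0.12 (SD, n = 3; adjusted p = 0.129) and a 95% interval of -0.48 to 0.04. Its signals were 43.0, 68.5 and 124 in tumours 1, 2 and 3, against 54.9, 55.7 and 65.1 in the pool, and tumour 1 was not well above background. The other Car8 probe, 1888 bases away, did not pass the filter; its ratios were -0.29, -0.22 and 0.18, and it was well above background in 1 tumour only, tumour 3. Car8 was called lower with spike-in centring (-1.08, adjusted p = 0.00399). Car11, a secreted relative, had -0.25, -0.37 and -0.15, with a mean of -0.25 ± 0.11 (SD, n = 3; adjusted p = 0.0897), which was 0.12 with median centring.

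**Figure D3:**
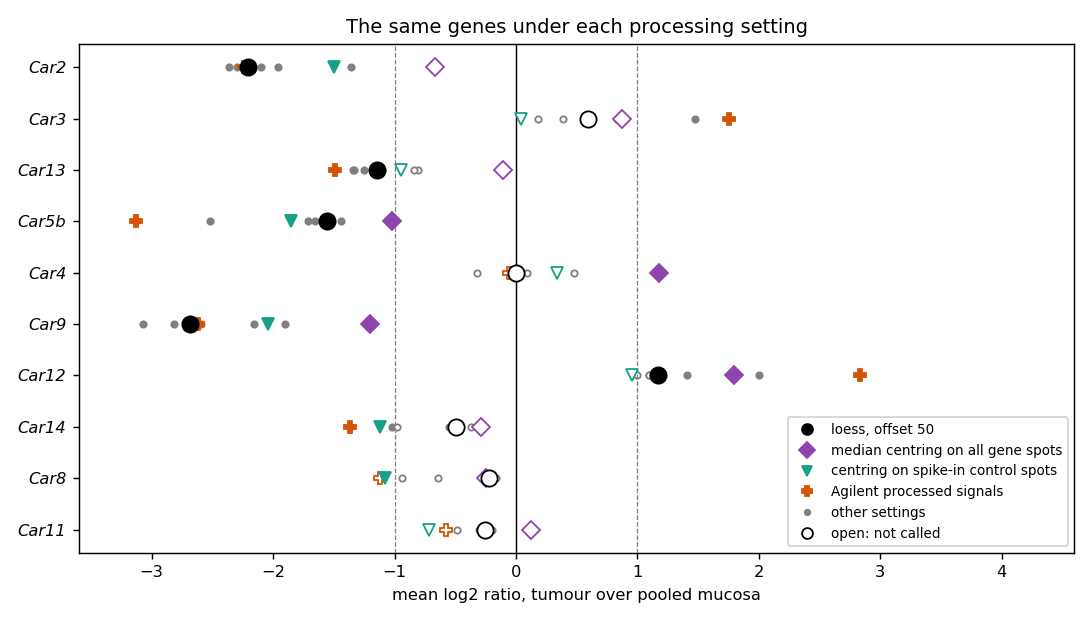
Mean log2 ratio of tumour over pool for each gene under loess with an offset of 50 (large circle) and under the 12 alternatives, filled where the gene was called. Car5b and Car9 are filled throughout, Car2 is open only with median centring, and Car4 lies on either side of 0.

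The rest of the family and the partners of the reaction were read from lists, some of which share genes. Of 6 further carbonic anhydrase genes, 3 were tested, 0 were called higher and 2 lower (over all genes 9.34% were called higher and 9.69% lower, here and for the lists that follow): Car7, a cytosolic isoform known from brain, at -1.57 ± 0.20 (adjusted p = 0.00151), and Car15, a lipid-anchored membrane isoform, at -1.06 ± 0.14 (adjusted p = 0.00285; SD, n = 3). The Car15 call was lost without tumour 2 and with each of the 3 centring alternatives, and that of Car7 with median centring. Car5a, Car6 and Car10 were not well above background on all arrays in either channel. Of 27 bicarbonate and proton transporters with their partners, 22 were tested, 4 were called higher and 8 lower, with a median of 0.00015 that was 0.30 with median centring and -0.54 with spike-in centring. Slc26a9, a chloride channel and exchanger of the gastric epithelium, had -4.20 ± 0.18 (adjusted p = 0.000332). The water channel genes Aqp4, of parietal cells, and Aqp1, of endothelium among other cells, had -3.82 ± 0.18 (adjusted p = 0.000376) and 3.42 ± 0.18 (adjusted p = 0.000436). Of 16 genes of parietal acid secretion, 14 were called lower and 0 higher, with a median of -2.70, led by the channel subunit gene Kcne2 at -7.51 ± 0.35 (adjusted p = 0.000242), Atp4b (adjusted p = 0.000234) and the pump gene Atp4a at -6.61 ± 0.36 (adjusted p = 0.000306; SD, n = 3).

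**Figure D4:**
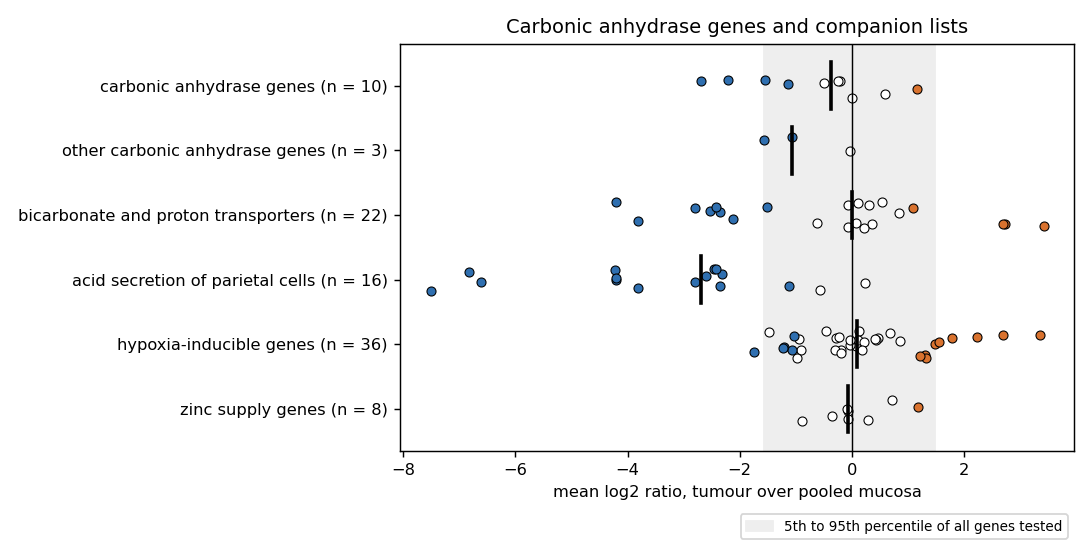
Mean log2 ratio of tumour over pool of each tested gene in the carbonic anhydrase set and the companion lists, orange where called higher, blue where called lower and open where not called, with a bar at the median; the grey band runs from -1.57 to 1.49, the 5th to 95th percentile of all genes tested. Genes of acid secretion extend to -7.51, while the 10 carbonic anhydrase genes lie between -2.68 and 1.17.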

How the data were processed

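The scanner files hold intensity values that the authors deposited, among them mean signals and local backgrounds of each spot, from Agilent Feature Extraction (version 9.5.3 per the submitters' processing notes, 10.7.3.1 per the file headers), with probe coordinates on mm9. Processed intensity signals and a log10 ratio of red over green are also given per the file headers. The authors' table of processed values is in log2 units, tumour over pool, and lies within 0.01 of the scanner ratio at 99.8% of filled probes on each array. Labels state 250 ng of RNA per sample, and all arrays lay on 1 slide.

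Signals were corrected by normexp (offset 50) and normalised by loess within arrays in limma 3.58.1 under R 4.3.3. Control and outlier spots were left out, and spots of a probe averaged. Probes well above background in red or in green on all 3 arrays were kept, and a gene was read by its brightest kept probe. Names came from RefSeq accessions for 26055 of 39429 probes. A moderated two-sided test (lmFit, eBayes) asked whether each ratio differed from 0, and p-values were adjusted by Benjamini-Hochberg over 19428 genes; the probe-level test was adjusted over 24156 probes. The pool is 1 control sample, so the spread among normal mice is not in the test, and without a dye swap a dye effect remains in each ratio. "At least" folds use signals after Aquantile, with the dim side at the lowest signal well above background or its own, if higher. The number of arrays limits the precision.

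The members and lists were chosen with earlier results of these data known. All members are named, and of each companion list the 3 called genes with the largest absolute ratio (or the brightest, where none was called); of the marker lists only genes beside a result are named. A gene so chosen is not reported here. The near-match search of probes and the promoter motif were chosen after the data were seen. Alternatives were an offset of 0, Agilent's processed signals, 3 other centrings (spike-in spots have mixed design ratios), the authors' table, other probe filters, the median of a gene's probes and leaving out each replicate. With spike-in centring the adjusted p-values of limma could be far smaller (3.99e-103 for Kcne2, against 0.000242 with loess). The test was tried on simulated data, and no result here rests on that trial.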

Additional observations from a re-analysis of the deposited data

How the results depend on the processing

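The counts of carbonic anhydrase genes called were 4 to 7 under the alternatives, against 5 in the report, with 0 to 2 called higher and 2 to 5 lower. Counts of 7 came with an offset of 0 and with Agilent's processed signals. There 29.6% and 35.1% of all genes were called, against 19.0% in the report. Only 7 members were tested with the authors' value table and with both channels above background, where 29.5% and 21.0% of all genes were called. With median centring 2 were called lower, against 4 in the report, and 556 of 19428 genes were called lower. Over all genes the count of calls was 3696, with 5743 at an offset of 0, 6814 with Agilent's processed signals and 8304 with median centring on all gene spots; over probes it was 4242, with 6867, 8303 and 9694 under the same settings and 6513 with spike-in centring. Without 1 replicate these counts were 3444 to 3607 genes and 3903 to 4126 probes. The sign of Car4 changed to -0.057 with Agilent's processed signals and with the authors' value table, to -0.32 with the median of its probes and to -0.040 and -0.052 without replicates 2 and 3, with 0.094 and no change of sign without replicate 1; that of Car11 changed to 0.12 with median centring. The causes were not tested. Car3, Car8 and Car12 had no value with the authors' table, where blanks leave them on fewer than 3 arrays, or with probes above background in both channels. The slide as a block was not run, since all arrays share 1 slide. Each ratio compares a tumour with the pool on the same array. Since that pool is the same on every array, no tumour could be paired with a control of its own.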

Other observations

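Of 8 genes of zinc supply, from which carbonic anhydrases take their metal, 1 was called higher and 0 lower, with a median log2 ratio of -0.07 by limma. The called gene was the zinc importer Slc39a8 at 1.17 ± 0.71 (SD, n = 3; adjusted p = 0.0307). Its call was lost without replicate 1 (0.82), without replicate 3 (1.17, adjusted p = 0.125), with spike-in centring (0.91), with centring on the tested probes (1.05, adjusted p = 0.0511) and when dim probes were kept in the fit (adjusted p = 0.0541). The share called was 12.5%, against 19.0% of all genes. With median centring 6 of the 8 were called higher and the list's median was 1.23, where 42.7% of all genes were called and their median was 0.77. A probe named LOC676792, which lies between the Car8 probes on chromosome 4 (8068934 to 8068993 of mm9) and was annotated as similar to Car8, was not well above background in either channel on any array.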
